A study of Mus musculus with 36 samples.

Results

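Nuclear receptors are transcription factors that bind DNA at hormone response elements, and many of them change activity when a small lipophilic ligand such as a steroid, thyroid hormone, fatty acid or oxysterol binds. Coregulators are proteins that do not bind DNA themselves but are recruited by the receptors: coactivators such as Ncoa1 bring histone acetyltransferases to the target gene, and corepressors bring deacetylases. In embryonic stem cells the orphan receptor Nr6a1 (germ cell nuclear factor) is known to repress Oct4 after retinoic acid (RA) is added, and the coactivator Ncoa3 is known to help sustain self-renewal. Described here are the 30 genes, of 13674 with a single symbol on the arrays, whose symbol is that of a nuclear receptor of the Nr1 to Nr6, Ppar, Thr, Esr or Ror families or of an Ncoa or Ncor coregulator. There were 23 receptors and 7 coregulators, all 7 of them Ncoa genes. Where a gene had several probe sets the brightest was used. Of the 30 genes, 21 (14 receptors and all 7 coregulators) were bright enough to be tested, and 9 receptors fell under the brightness filter.

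Expression was measured in mouse embryonic stem cells that carry an eGFP reporter of Oct4, the transcription factor of the undifferentiated state, in 18 RNA samples (libraries below), with 1 chip A and 1 chip B array for each. Cells had lost the self-renewal cytokine leukemia inhibitory factor (LIF) for 1 day (4 libraries), 3 days (3) or 5 days (3), or had lost LIF and received 0.1 uM RA for 1 day (3) or 2 days (2), and the 3 control libraries came from cells kept in 1000 U/mL LIF and harvested at 2 days. All cells grew on gelatin-coated dishes after routine culture on fibroblast feeder cells, at a plating density that was lower for longer times, and were sorted by eGFP into low (5 libraries), medium (6) and high (7) Oct4 gates. Different gates stood in for replicates within each arm. Nothing in the labels says that they came from separate cultures, so p-values measure the spread between these libraries, which may be technical. Time in culture, plating density and loss of LIF cannot be told apart, since controls were collected at 1 time only.

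The median signal of an array was 37.7 to 48.8 on chip A and 65.5 to 76.3 on chip B (36 arrays, a number that limits precision). Actb probe sets at the 3′ end exceeded those at the 5′ end, and the excess differed between arms. The RNA had been amplified in 2 rounds, and whether the excess came from shortened RNA was not tested. On the log2 scale and chip A it was 1.1 to 1.34 in controls, 0.98 to 1.15 at day 1, 0.81 to 1.14 at day 3 and 0.83 to 0.94 at day 5 without LIF, and 1.26 to 1.45 at day 1 and 0.79 to 0.86 at day 2 with RA. On chip B it was 0.73 to 0.93 at day 5, against 1.19 to 1.43 in controls. The arrays were scanned on 4 days. The second high gate libraries of the control and of the day 1 arm without LIF were read on scan day 1, on scan day 2 all day 3 and all day 1 RA libraries, on scan day 3 both day 2 RA libraries, the day 5 arm and what remained of the day 1 arm without LIF (3 libraries), and on scan day 4 the other 2 controls. The second of the 2 high gate libraries labelled as day 1 without LIF stood apart from its arm. On chip B it correlated more closely with the day 1 RA arm (0.932, across probe sets) than with its own arm (0.887). It is called the doubted library below, was kept under its label, and the calls that change without it are given both ways. Markers of undifferentiated cells, 10 genes such as Pou5f1 and Nanog, summed to 18558 to 22223 signal units in controls, against 3677 to 3947 at day 5.

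The promoters of the members that moved are shown first. RefSeq promoter windows of 300 bases around the transcription start (GRCm38.p6) were at hand for 25 of the 30 members, 35 windows in all, and the 5 below are those of the receptors and coregulators that passed the test in at least 2 of the 7 comparisons fitted over all 18 libraries. Each is written 5′ to 3′ on the gene's strand, with capitals marking any match, on either strand, to AGGTCA (the half-site that most receptors of this group bind), GGGCGG (the GC box), CCAAT (the CCAAT box), TATAAA (the TATA box) or TGACGTCA (the cAMP response element). Matches to GGGCGG may overlap one another.
Nr6a1 start nearer the 3′ end of the gene, chr2:38784466-38784765, minus strand: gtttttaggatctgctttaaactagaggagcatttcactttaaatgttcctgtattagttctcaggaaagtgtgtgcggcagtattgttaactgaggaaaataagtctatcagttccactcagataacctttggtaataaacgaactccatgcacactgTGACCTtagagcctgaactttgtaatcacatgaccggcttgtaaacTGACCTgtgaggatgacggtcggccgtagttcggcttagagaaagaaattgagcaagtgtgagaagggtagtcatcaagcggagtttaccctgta
Nr6a1 start nearer the 5′ end of the gene, chr2:38926412-38926711, minus strand: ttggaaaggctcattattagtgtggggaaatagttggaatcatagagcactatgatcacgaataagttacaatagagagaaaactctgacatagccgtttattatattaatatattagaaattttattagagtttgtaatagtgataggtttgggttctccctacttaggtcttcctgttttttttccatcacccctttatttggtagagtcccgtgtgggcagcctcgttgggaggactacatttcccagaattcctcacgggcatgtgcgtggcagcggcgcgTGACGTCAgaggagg
Nr2f6, chr8:71381903-71382202, minus strand: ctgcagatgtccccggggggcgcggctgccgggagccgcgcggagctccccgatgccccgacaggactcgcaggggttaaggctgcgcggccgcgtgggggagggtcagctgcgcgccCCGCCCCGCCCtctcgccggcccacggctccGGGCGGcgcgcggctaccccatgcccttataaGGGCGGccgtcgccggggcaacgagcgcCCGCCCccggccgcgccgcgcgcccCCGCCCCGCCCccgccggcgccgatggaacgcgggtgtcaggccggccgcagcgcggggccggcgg
Nr2c1, chr10:94147681-94147980, plus strand: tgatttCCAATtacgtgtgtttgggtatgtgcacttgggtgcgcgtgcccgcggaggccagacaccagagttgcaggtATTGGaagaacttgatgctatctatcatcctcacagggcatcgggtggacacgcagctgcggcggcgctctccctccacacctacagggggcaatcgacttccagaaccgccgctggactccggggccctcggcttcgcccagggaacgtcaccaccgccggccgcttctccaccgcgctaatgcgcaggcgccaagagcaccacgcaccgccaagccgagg
Ncoa1, chr12:4477133-4477432, minus strand: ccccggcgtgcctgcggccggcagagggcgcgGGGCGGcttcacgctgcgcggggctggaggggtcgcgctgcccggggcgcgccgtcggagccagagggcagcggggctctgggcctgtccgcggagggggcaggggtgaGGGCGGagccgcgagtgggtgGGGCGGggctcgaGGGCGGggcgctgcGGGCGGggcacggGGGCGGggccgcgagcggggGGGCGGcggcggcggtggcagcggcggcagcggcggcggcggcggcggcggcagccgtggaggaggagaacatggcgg
The window of Nr6a1 nearer the 3′ end of the gene held 2 AGGTCA half-sites on the opposite strand and the other held 1 TGACGTCA. Neither Nr6a1 window had a GC box, and 42.3% of the bases were G or C in both. The Nr2f6 and Ncoa1 windows were 82.7% and 84.7% G or C, each with 7 GC boxes, and the Nr2c1 window was 63.3% G or C with 2 CCAAT matches. Over all 32851 promoters in the table, 16.3% held AGGTCA, 35.7% GGGCGG, 37.4% CCAAT, 13.6% TATAAA and 1.79% TGACGTCA. Among the 35 member promoters these shares were 22.9%, 45.7%, 31.4%, 14.3% and 2.86%. A match is a description of the letters and not a binding site. Windows for Ncoa2 and Ncoa3, which also moved, are not shown.

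Set against control, 5 days without LIF gave the largest number of members past the test. Read through their brightest probe sets, 3 related coactivators moved in opposite directions at day 5. Ncoa1 and Ncoa3 fell and Ncoa2 rose; these belong to 1 family, the steroid receptor coactivators, which bind ligand-occupied receptors and recruit the acetyltransferases Crebbp and Ep300. Ncoa4, a coactivator of the androgen receptor that also delivers ferritin for degradation, fell as well. The receptors Nr2c1, Nr6a1 and Nr2f6 rose. In all, 4 of the 21 tested members rose and 3 fell by limma with Benjamini-Hochberg adjustment (adjusted p under 0.05), that is 19% and 14.3% of them, against 17% and 15.2% of the 9817 genes tested. The shares of members that moved were thus close to those of all genes. Markers of undifferentiated cells were lower and fibroblast, endoderm and streak markers higher in the same libraries, where the Actb excess was also lower. The part of either in the members' differences was not tested. In such bulk samples, fewer cells of a type and less RNA per cell cannot be told apart.

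Ncoa3 had a signal of 555, 425 and 412 in the 3 controls, 387, 254, 435 and 403 at day 1, 259, 284 and 306 at day 3 and 162, 123 and 227 at day 5 without LIF. With RA it was 278, 301 and 278 at day 1 and 258 and 259 at day 2. Every day 3, day 5 and RA library lay below every control, and among the day 1 libraries the value of 254 was that of the doubted library. The gene fell by 1.52 ± 0.22 on the log2 scale at day 5 (SE, adjusted p = 0.000308, 2.86-fold), and between -1.66 and -1.29 whichever of the 6 libraries was left out. In the other arms it was lower by smaller amounts: -0.77 ± 0.22 at day 3 (adjusted p = 0.048), -0.75 ± 0.22 at day 1 with RA (adjusted p = 0.0348) and -0.94 ± 0.26 at day 2 with RA (adjusted p = 0.0335). The day 3 call was lost without any 1 of the 6 libraries compared (adjusted p 0.0681 to 0.162). The call at day 1 with RA was lost without any 1 of them but control high replicate 2 (adjusted p up to 0.118), and that at day 2 with RA without control high replicate 1 or either RA library (adjusted p up to 0.183). Ncoa3 had 2 other tested probe sets. The chip A probe set was called in the same direction at day 5 (-0.90) and at days 1 and 2 with RA (-0.85 and -1.18). The second chip B probe set fell by 1.46 at day 1 with RA, but was at -0.46 at day 5 (adjusted p = 0.404) and -0.30 at day 2 with RA (adjusted p = 0.706). The size of the day 5 difference thus varied between probe sets of the gene.

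Ncoa1 had signals of 116, 115 and 142 in the controls, 83.5, 88.6, 95.1 and 144 at day 1, 53.7, 85.2 and 77.5 at day 3 and 51.6, 55.0 and 18 at day 5. With RA the values were 88.2, 91.3 and 83.7 at day 1 and 45.1 and 38.7 at day 2. The 4 lowest values of the series were in the day 5 and day 2 RA arms, and the day 1 library without LIF at 144, of the low gate, was as high as the controls. The fall was -1.55 ± 0.30 at day 5 (SE, adjusted p = 0.00217, 2.92-fold) and -1.47 ± 0.35 at day 2 with RA (adjusted p = 0.0156). At day 1 with RA the difference was -0.47 ± 0.30 (adjusted p = 0.306). The day 2 RA call was lost without control medium or either RA library (adjusted p up to 0.114). With scan day as a fixed block the differences were -1.66 (adjusted p = 0.085) and -1.58 (adjusted p = 0.132), past the test in neither arm. A second probe set, on chip A, also fell at day 5 (-0.97) and was at -0.48 at day 2 with RA (adjusted p = 0.304).

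Ncoa2 showed the opposite course. Its signal was 156, 132 and 221 in the controls, 188, 253, 188 and 210 at day 1, 150, 127 and 285 at day 3 and 383, 529 and 547 at day 5. With RA it was 291, 432 and 371 at day 1 and 433 and 379 at day 2. All day 5 and all RA libraries were above all controls, whereas the day 3 libraries overlapped them, with a high value in the low gate only. Ncoa2 rose by 1.37 ± 0.26 at day 5 (SE, adjusted p = 0.00191, 2.58-fold), by 0.96 ± 0.26 at day 1 with RA (adjusted p = 0.0225) and by 1.02 ± 0.30 at day 2 with RA (adjusted p = 0.0436). At day 3 the difference was -0.04 ± 0.26. Leaving out libraries did not end the day 5 call (1.25 to 1.53), whereas the day 2 RA call was lost without any 1 of the 5 libraries (adjusted p 0.0535 to 0.291). The day 1 RA call was lost without control high replicate 1 or 2 or the high or medium RA library (adjusted p up to 0.104). Only 1 of the 3 Ncoa2 probe sets was bright enough to be tested. The next brightest, also on chip B, did not show the rise. It had 50.7, 50.2 and 55.1 in controls and 20.5, 9.09 and 72.2 at day 5. With RA it had 41.8, 13.6 and 42.3 at day 1 and 30.0 and 69.5 at day 2.

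**Figure D1:**
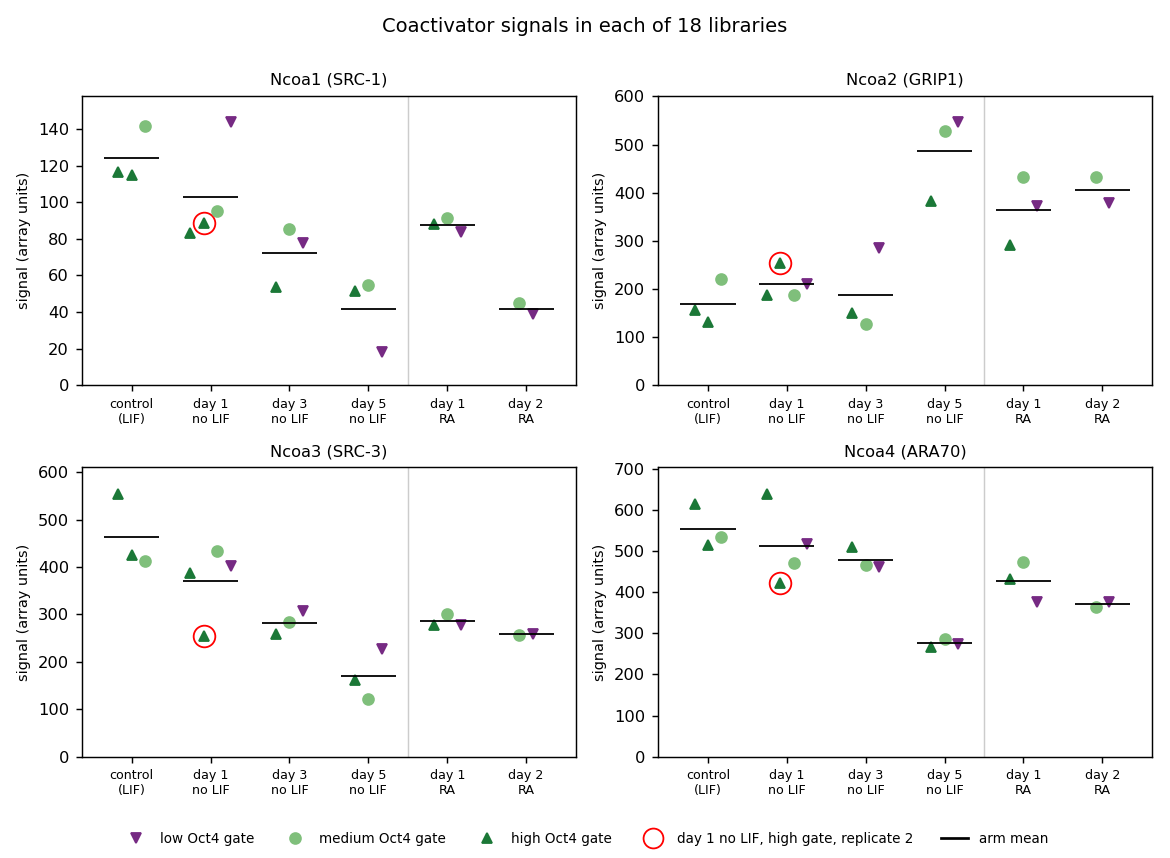
Signal (array units, linear axis from 0) of Ncoa1, Ncoa2, Ncoa3 and Ncoa4 in each of the 18 libraries, by arm from control through days 1, 3 and 5 without LIF to days 1 and 2 with RA; the symbol gives the Oct4 gate, the black line the arm mean and the red ring the doubted library. Ncoa3 and Ncoa4 have their lowest arm mean at day 5, and in Ncoa2 the day 5 and RA libraries (291 to 547) lie above the controls (132 to 221).

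The other 4 coregulators differed in their course. Ncoa4 was at 267, 287 and 273 at day 5, against 615, 515 and 534 in controls, and fell by 0.97 ± 0.16 (SE, adjusted p = 0.000294, 1.96-fold). At day 3 it averaged 479 ± 25.5 (SD, n = 3), a difference of -0.18 ± 0.16 from control, which was not past the test (adjusted p = 0.475). Neither RA arm was past the test (-0.35 ± 0.16 at day 1 and -0.53 ± 0.18 at day 2, adjusted p = 0.127 and 0.0574). Without the doubted library the day 2 difference was -0.49 and past the test (adjusted p = 0.0405). Ncoa5, Ncoa6 and Ncoa7 passed in no comparison. Ncoa6, a subunit of a histone methyltransferase complex, lay between 41.9 and 85.3 in all 18 libraries, Ncoa5 between 70.4 and 136 and Ncoa7 between 49.8 and 128. Their day 5 differences were within 0.29 of 0 on the log2 scale, with a median half-width of the 95% interval over the members of 0.48.

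Nr6a1 was the receptor with the largest difference past the test. Its signal was 338, 334 and 379 in the controls, 377, 859, 400 and 394 at day 1, 720.0, 674 and 691 at day 3 and 559, 668 and 667 at day 5. With RA it was 748, 855 and 857 at day 1 and 717 and 620.3 at day 2. The 859 at day 1 without LIF belongs to the doubted library and is the highest of all 18 values, while the other 3 day 1 libraries were at or just above the control level. All day 3, day 5 and RA libraries lay above all controls. The rise was 1.24 ± 0.26 at day 1 with RA (SE, adjusted p = 0.00648, 2.36-fold), 1.00 ± 0.26 at day 3 (adjusted p = 0.0293) and 0.86 ± 0.26 at day 5 (adjusted p = 0.0291), and the difference of 0.96 ± 0.30 at day 2 with RA missed the threshold (adjusted p = 0.0562).

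The doubted library widened the spread behind these Nr6a1 values. Without it the standard error was 0.12, or 0.15 at day 2 with RA. The gene then rose in all 4 of those arms, by 1.18 at day 1 with RA (adjusted p = 7.61e-05), 0.94 at day 3 (adjusted p = 0.000497), 0.80 at day 5 (adjusted p = 0.000461) and 0.85 at day 2 with RA (adjusted p = 0.00223). Day 1 without LIF was at 0.12 ± 0.12 without it (adjusted p = 0.666) and at 0.46 ± 0.24 with it (adjusted p = 0.385). With it kept, the day 3 call was lost without any 1 of the 6 libraries compared (adjusted p 0.0638 to 0.106), and the day 5 call without any 1 but the day 5 high library (adjusted p up to 0.0929). With scan day as a fixed block the day 5 rise was 2.02, a fit that ties controls to the other scan days only through scan day 1, which holds the doubted library. In the same fit Ncoa2 was at 2.17 at day 5 and 1.81 at day 2 with RA, and Nr2f6 at 0.63 at day 5. A second tested Nr6a1 probe set rose by 0.88 at day 1 with RA (adjusted p = 0.032) and was at 0.36 at day 5 (adjusted p = 0.354).

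To see what RA added, its day 1 libraries were set against those that had only lost LIF. With all libraries, 0 of 21 members were past the test in either direction, against 3.35% of all genes higher and 3.3% lower, and 4 members had an unadjusted limma p under 0.05. The smallest adjusted p was that of Nr6a1, with a difference of 0.78 ± 0.24 (SE, adjusted p = 0.0726). Without the doubted library Nr6a1 rose by 1.06 ± 0.12 (adjusted p = 0.000174) and Ncoa2 by 0.86 ± 0.23 (adjusted p = 0.0244), and 0 members fell, where 10.1% of all genes were called higher and 8.25% lower. The second Nr6a1 probe set was past the test with all libraries (1.09, adjusted p = 0.0267). The 2 arms share no scan day, so scan day and RA cannot be told apart here.

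Nr2f6 (also called EAR2), an orphan receptor of the COUP-TF family that mostly represses, was the member called most often, in all 5 comparisons with control, by small amounts. It had 144, 156 and 159 signal units in the controls, and its values in the other 15 libraries ran from 197 to 253, with no overlap. Of all genes tested, 13.1%, 34% and 48.1% had no overlap with control at days 1, 3 and 5 without LIF. With RA it was 43.2% at day 1 and 49.8% at day 2. Only the doubted library shared a scan day or a chip A lot with a control. For the rest, scan day, lot and arm cannot be told apart. It rose by 0.52 ± 0.12 at day 1 without LIF (SE, adjusted p = 0.0332; 0.44 and 0.0369 without the doubted library), by 0.51 ± 0.13 at day 3, by 0.39 ± 0.13 at day 5, by 0.66 ± 0.13 at day 1 with RA and by 0.59 ± 0.15 at day 2 with RA, which is 1.31- to 1.58-fold. The 5 comparisons share the 3 control libraries, so these are not independent. Between day 5 and day 1 within scan day 3 the difference was -0.06 ± 0.13 (adjusted p = 0.74). The day 1 RA call held whichever library was left out (0.63 to 0.71). The calls without LIF did not: that at day 1 was lost without control high replicate 1, control medium or the day 1 medium library (adjusted p up to 0.139), that at day 3 without those 2 controls or the day 3 high or medium library (up to 0.0628), and that at day 5 without those 2 controls or the day 5 high or low library (up to 0.103). At day 2 with RA the call needed both RA libraries (adjusted p up to 0.119).

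Nr2c1 (TR2), an orphan receptor that binds direct repeats of the half-site as a dimer with Nr2c2 (TR4), rose and its partner did not pass. Nr2c1 was at 100.5, 113 and 123 at day 5, against 62.2, 52.2 and 65.8 in controls, and rose by 0.88 ± 0.15 (SE, adjusted p = 0.000519, 1.84-fold). It rose by 0.58 ± 0.15 at day 3 (adjusted p = 0.0214) and by 0.64 ± 0.18 at day 2 with RA (adjusted p = 0.0229), and was at 0.45 ± 0.14 at day 1 without LIF (adjusted p = 0.102), or 0.42 without the doubted library (adjusted p = 0.131). The day 3 call was lost without control high replicate 1 or 2 or the day 3 high or low library (adjusted p up to 0.13), and the day 2 RA call without either RA library (up to 0.146). Nr2c2 lay between 114 and 282 and was at 0.07 ± 0.24 at day 5 (adjusted p = 0.874). Whether the 2 genes differ in their response was not tested.

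**Figure D2:**
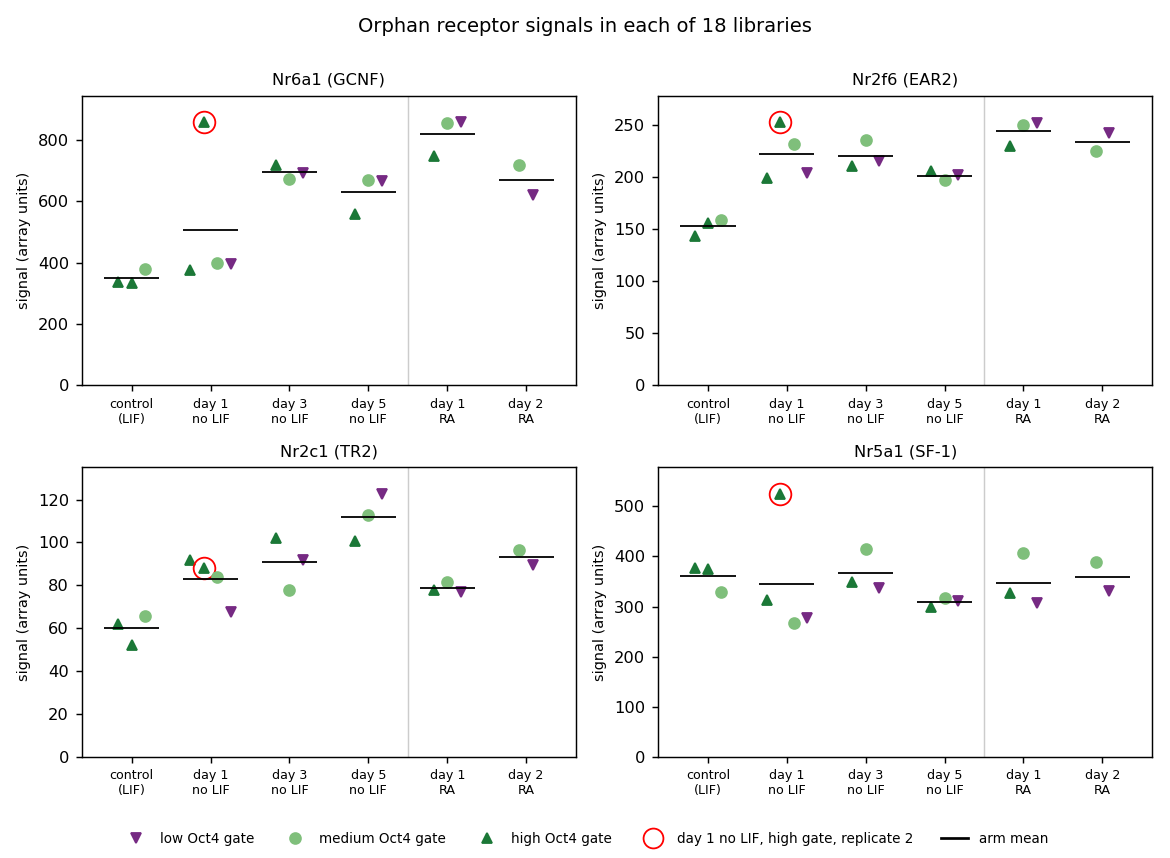
Signal (array units, linear axis from 0) of Nr6a1, Nr2f6, Nr2c1 and Nr5a1 in each of the 18 libraries, drawn as in the plot of the coactivators. Nr6a1 is at 334 to 400 in controls and in 3 of the 4 day 1 libraries without LIF, and at 559 to 859 elsewhere; all 15 libraries that are not controls lie above the controls in Nr2f6.

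Against control, 3 members rose and 1 fell at day 3, against 6.88% and 5.68% of all genes; 1 rose and 0 fell at day 1 without LIF, against 1.2% and 1.01%. At day 1 with RA 3 rose and 1 fell, against 11.1% and 9.86%, and at day 2 with RA 3 rose and 2 fell, against 8.68% and 8.26%. Over these 5 comparisons with control, 7 different members were called, and they are the 7 described above. All 7 were called at day 5, where 17% of all genes rose and 15.2% fell. The share of all genes called in at least 1 of the 5 was not counted. Day 3 rests least firmly: its count of 4 was 0 or 1 without any 1 of the 6 libraries compared, and 0 when scan day was a random block (adjusted p 0.0872 to 0.18). The count at day 1 with RA was 2 without control high replicate 1, the high or the medium RA library, and 2 with that block, where Ncoa2 (adjusted p = 0.0932) and Ncoa3 (0.127) were lost. The day 1 call of Nr2f6 without LIF was lost with it (0.0591). With the random block 3.07% of all genes were called at day 3 and 6.82% at day 1 with RA. At day 1 without LIF it was 0.52%. When only the libraries of the 2 arms compared were fitted, 5 members were called at day 5 and 0 in the other 4 comparisons. At day 2 with RA it was 0 without either RA library and 3 without control high replicate 1 or control medium. The high gate alone at day 1 without LIF against control, 2 libraries each, called 0 members and 0% of all genes either way, with 1 member at an unadjusted limma p under 0.05. It called 0 members without the doubted library too.

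**Figure D3:**
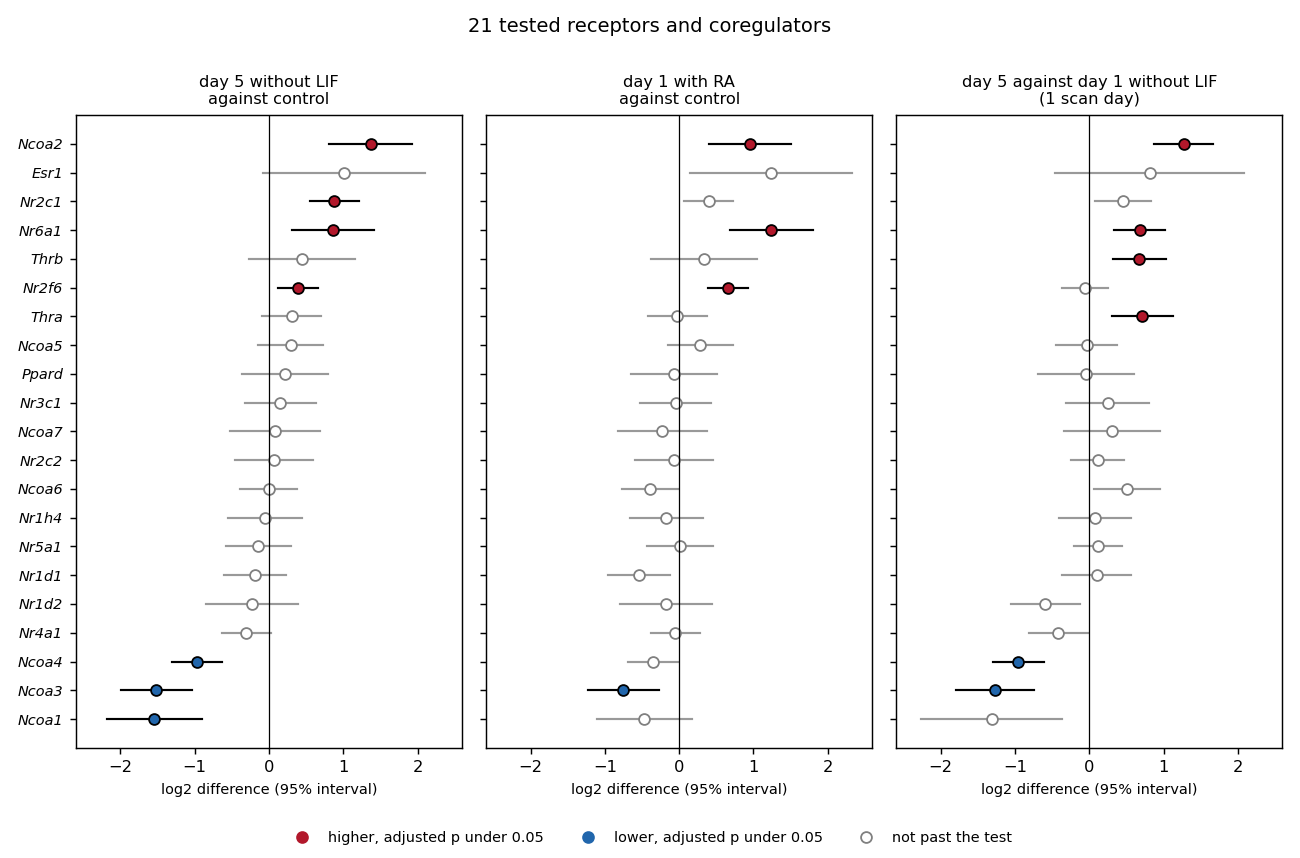
Log2 difference with its 95% interval for each of the 21 tested members in 3 comparisons, ordered by the day 5 difference; filled points passed the test (adjusted p under 0.05; red higher, blue lower). Ncoa2 and Nr6a1 are higher and Ncoa3 lower in all 3 panels.

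Comparisons within a scan day avoid the split of the controls from most other libraries. Day 5 against the 3 day 1 libraries without LIF of scan day 3 called 4 members higher and 2 lower, against 18.2% and 15.6% of all genes. Ncoa2 rose by 1.27 ± 0.16 (SE, adjusted p = 0.0044), Ncoa3 fell by 1.27 ± 0.22 (adjusted p = 0.011), Ncoa4 fell by 0.96 ± 0.15 (adjusted p = 0.00251) and Nr6a1 rose by 0.68 ± 0.14 (adjusted p = 0.0191). Ncoa1 was at -1.31 ± 0.39 (adjusted p = 0.056). Of the other Ncoa3 probe sets, that on chip A fell by 0.90 (adjusted p = 0.0154) and the second on chip B was at -0.08 (adjusted p = 0.851). The count was 3 without the low library of either arm. The Nr6a1 call was lost without any 1 of the 6 libraries (adjusted p 0.0567 to 0.0862), and the Ncoa3 call without the high library of either arm (adjusted p up to 0.05002). Day 5 chip B arrays came from another array lot than the day 1 chip B arrays, so lot and arm cannot be told apart for members on chip B, which are Ncoa1, Ncoa2, Ncoa3, Nr6a1 and Thra among those named. For Ncoa4, measured on chip A, lot and scan day were shared.

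Both thyroid hormone receptors, which bind the half-site as partners of the retinoid X receptors, rose in that comparison. Thra was at 341, 440 and 461 at day 5, against 260, 246 and 236 in the day 1 libraries of the same scan day, without overlap, and rose by 0.72 ± 0.17 (SE, adjusted p = 0.0272). Thrb, at 40.2, 50.6 and 30.3 against 25.2, 37.2 and 13.0, overlapped between the arms and rose by 0.67 ± 0.15 in the fit with gate as a term (adjusted p = 0.0124). The Thra call was lost without the medium or low library of either arm (adjusted p up to 0.113) and the Thrb call without either low library (adjusted p up to 0.0612). Against control neither brightest probe set passed at day 5 (0.31 ± 0.18 in Thra and 0.45 ± 0.33 in Thrb). The chip A probe set of Thra did, at 0.76, and was at 1.16 against day 1.

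Day 2 with RA against day 1 without LIF within scan day 3 called 1 member higher and 0 lower, against 7.95% and 6.06% of all genes. That member was Ncoa2, at 433 and 379 against 188, 188 and 210, which rose by 0.93 ± 0.19 (SE, adjusted p = 0.0376), a call that leaving out any 1 of the 5 libraries ended (adjusted p 0.0525 to 0.201). Nr6a1 was at 0.71 ± 0.17 (adjusted p = 0.0535). Day 1 with RA against day 3 without LIF within scan day 2 called 0 members in either direction, against 0.805% and 0.733%, with 4 members at an unadjusted limma p under 0.05. The largest difference there was that of Ncoa2, 1.00 ± 0.27 (adjusted p = 0.133), and Nr6a1 was at 0.23 ± 0.16 (adjusted p = 0.415). Leaving out the high library of either arm gave 1 called member.

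**Figure D4:**
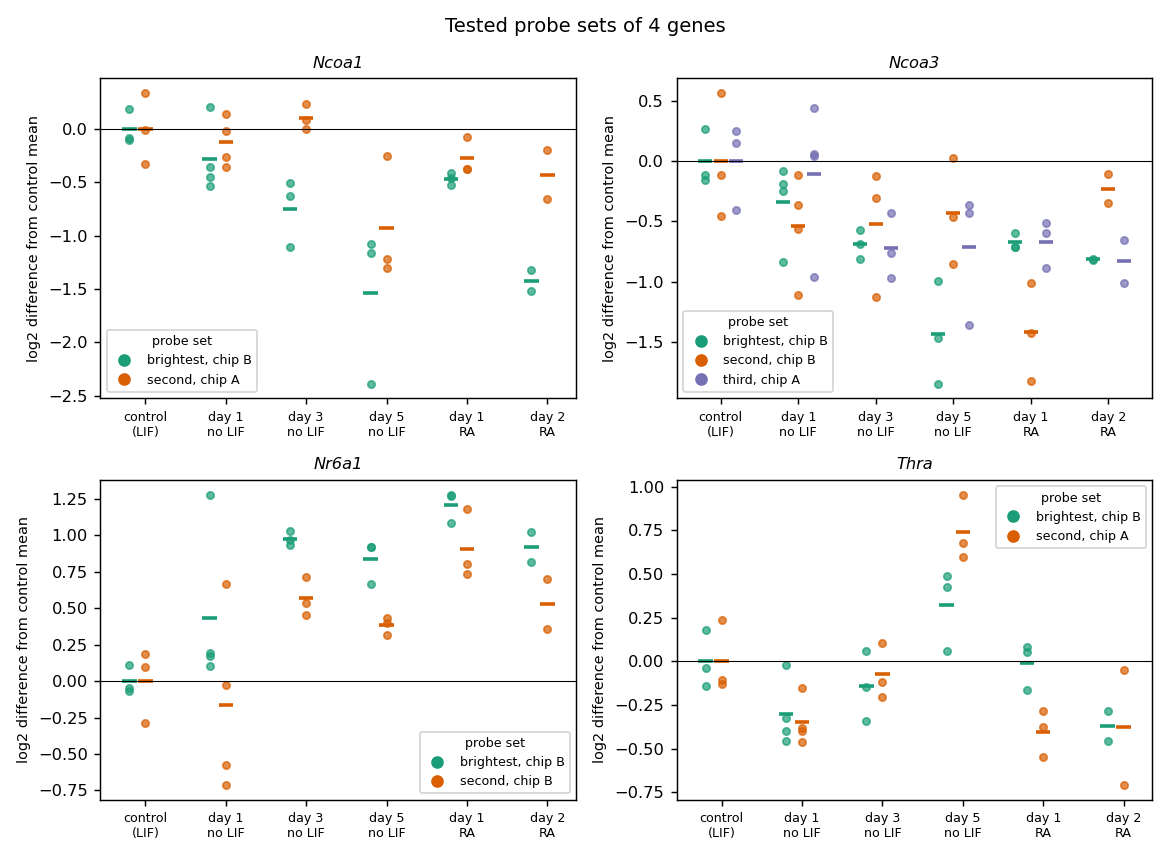
Log2 difference of each library from the control mean for every tested probe set of Ncoa1, Ncoa3, Nr6a1 and Thra, by arm from control through days 1, 3 and 5 without LIF to days 1 and 2 with RA; points are libraries, bars arm means and colours probe sets from the brightest on. Both probe sets of Nr6a1 have their highest arm mean at day 1 with RA, while the second chip B probe set of Ncoa3 is lowest at day 1 with RA and the brightest at day 5.

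The Oct4 gates did not separate the members. Low against high gate called 0 of 21 members and 0% of all genes in either direction, and 0 members had an unadjusted limma p under 0.05. The differences ran from -0.25 in Nr3c1 to 0.38 in Ncoa2, and the median half-width of the 95% interval was 0.36. These intervals are not adjusted for the number of genes, so gate differences larger than that could be missed too. Ncoa2, at 0.38, had an adjusted limma p of 0.97. Without the doubted library 0 members were called as well, with Ncoa2 at 0.48 (adjusted p = 0.727). The day 2 RA arm has no high gate library and the control arm no low one.

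Several receptors with known ligands passed in no comparison through their brightest probe set. Nr3c1, the glucocorticoid receptor, lay between 146 and 272 with a day 5 difference of 0.15 ± 0.22, and Ppard, a fatty acid receptor, between 202 and 421 with 0.21 ± 0.27. Nr1h4, the bile acid receptor, lay between 29.8 and 52.5 and Nr5a1, the steroidogenic factor, between 267 and 525. That Nr5a1 range is of the brightest of its 5 probe sets. The highest values of the others in any library were 43.1, 39.6, 26.6 and 7.46. The next gene to Nr5a1 in the RefSeq order on chromosome 2 is Nr6a1, with 0 protein-coding genes between them. Nr5a1 was at 0.02 ± 0.21 at day 1 with RA (adjusted p = 0.971), where Nr6a1 rose, and its highest value too was in the doubted library. The estrogen receptor Esr1 was dim and variable (8.00 to 56.9), with 1.24 ± 0.51 at day 1 with RA (adjusted p = 0.0978).

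Nr1d1 and Nr1d2 (the Rev-erb receptors) repress the clock gene Arntl. Nr1d1 lay between 41.0 and 83.8 and Nr1d2 between 325 and 752, and neither passed in any comparison. Without the doubted library Nr1d1 fell by 0.55 at day 1 with RA against control (adjusted p = 0.0482). On the chromosomes each neighbours a thyroid receptor, Nr1d1 next to Thra on chromosome 11 and Nr1d2 next but 1 to Thrb on chromosome 14. Within scan day 3, where Thra and Thrb rose, Nr1d1 was at 0.10 ± 0.20 (adjusted p = 0.727) and Nr1d2 at -0.59 ± 0.19 (adjusted p = 0.0696). Of the 9 tested genes of a list of 14 clock genes, 0 rose and 4 fell at day 5: Ciart (-1.36), Cry1 (-1.13), Arntl (-0.88) and Cry2 (-0.52). Over all genes 17% rose and 15.2% fell. The list's median was -0.44, against 0.00 over all genes.

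The immediate early receptor Nr4a1 depended on its probe set. The brightest, on chip B, lay between 246 and 393 and passed nowhere. The one on chip A fell by 0.50 at day 1 with RA and by 0.78 at day 2 with RA, and rose by 0.57 at day 5 against day 1 within scan day 3, where the chip B probe set was at -0.42. Nr4a2 and Nr4a3, of the same family, fell under the filter.

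The 9 dim receptors were Esr2, Nr1h3, Nr2f1, Nr2f2, Nr4a2, Nr4a3, Ppara, Pparg and Rora. Their signals ran up to 9.08 for Esr2, 7.22 for Pparg, 19.1 for Nr4a2, 27.5 for Nr1h3, 38.7 for Ppara, 41.2 for Rora and 45.7 for Nr4a3. The COUP-TF receptors Nr2f1 and Nr2f2, known to be induced by RA in embryonal carcinoma cells, had their highest values in the low gate at day 2 with RA, 25.9 and 76.1. The medium gate of that arm had 9.98 and 31.3, and the controls 0.763 to 5.08 and 8.99 to 23.6. For Nr2f2, 41.3 in the medium gate at day 5 and 33.6 in the high gate at day 1 with RA were also above that medium gate value. Its chip B probe set was at 31.4 and 29.6 at day 2 with RA, against 4.18 to 37.1 in controls, which overlapped. The second highest value of Nr2f1, 19.1, was in the doubted library. No test was made of these genes.

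The doubted library lay outside the range of the other 3 day 1 libraries in 17 of the 21 tested members (81%), against 67.3% of all genes tested. It was nearer to the day 1 RA mean than to theirs in 13 (61.9%), against 59.9% of all genes. Only in Ncoa1, Ncoa4, Ncoa6 and Thra did it lie inside the range of the day 1 RA libraries. It was just above that range in Nr6a1 (859 against 748 to 857) and Nr2f6 (253.3 against 229.9 to 252.6). In Ncoa3 it was below it (254 against 278 to 301). In Esr1 and Thrb it lay on the side away from the RA libraries.

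**Figure D5:**
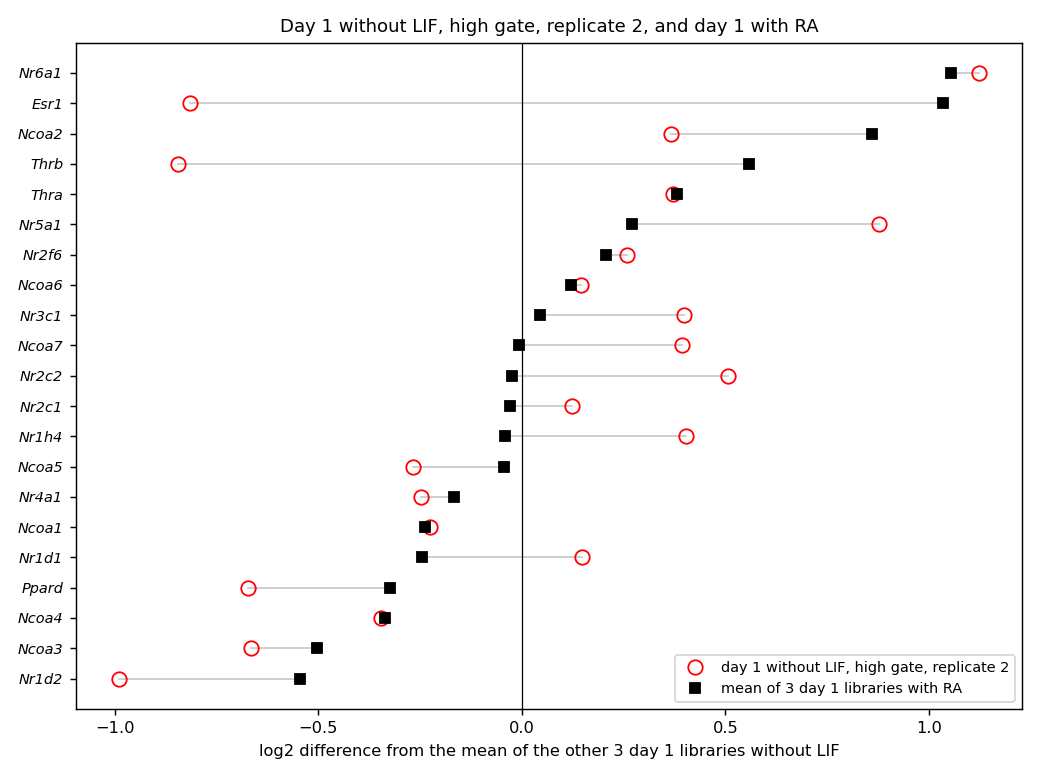
Log2 difference of the doubted library (red circles) and of the mean of the 3 day 1 RA libraries (black squares) from the mean of the other 3 day 1 libraries without LIF, for the 21 tested members ordered by the RA difference. The doubted library is nearer the square than 0 in 13 of 21 members, Nr6a1 among them.

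Of 14 other nuclear receptors on the arrays 7 were tested, and at day 5 1 rose and 3 fell (median -0.06), where 17% of all genes rose and 15.2% fell. Nr0b1 (Dax1), an atypical receptor that is abundant in undifferentiated stem cells, fell by 4.21 ± 0.63 (SE, adjusted p = 0.000165), the RA receptors Rarg and Rara fell by 1.62 and 0.74, and the retinoid X receptor Rxrb rose by 0.71. At day 1 with RA against control 1 rose and 1 fell, Rxrb at 1.07 and Nr0b1 at -2.96, where 11.1% of all genes rose and 9.86% fell. Of 26 tested coregulators outside the Ncoa family, 4 rose and 6 fell at day 5 (median 0.07), against 17% and 15.2% of all genes. By p these were led by the acetyltransferase Kat2b (-2.21), the corepressor scaffold Sin3a (-0.70), Trim24 (-0.79) and the Mediator subunit Med12 (0.85). At day 1 with RA 5 rose and 5 fell (median 0.14), against 11.1% and 9.86% of all genes. Crebbp, the acetyltransferase that Ncoa proteins recruit, rose by 0.93 there, Carm1 by 0.70 and Smarca4 by 0.62, and the deacetylase Hdac1 fell by 0.72.

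Target genes of the receptors were counted by list, to be read against 17% of all genes higher and 15.2% lower at day 5 with a median of 0.00. Of 9 genes bound or repressed by Nr6a1 in earlier work, 0 rose and 5 fell at day 5, with Sox2 at -2.51, Gdf3 at -2.26, Zfp42 at -3.38 and Nanog at -1.83 (list median -1.81). At day 1 with RA 1 rose and 4 fell, where 11.1% of all genes rose and 9.86% fell. Zfp42 (-2.10), Nanog (-1.06) and Sox2 (-0.74) were among those that fell, while the oocyte growth factor Gdf9 rose by 0.67. At day 2 with RA 0 rose and 5 fell, against 8.68% and 8.26% of all genes. A link of these differences to Nr6a1 was not tested. Of these 9 genes, Nanog, Zfp42, Tdgf1, Gdf3, Sox2 and Pou5f1 are also in the list of undifferentiated-cell markers. Of 7 tested glucocorticoid receptor targets 0 rose and 4 fell at day 5, the metallothioneins Mt1 (-1.57) and Mt2 (-1.18), Klf9 (-1.19) and Fkbp5 (-1.0), with a list median of -1.02. At day 5 against day 1 within scan day 3, 6 of the 7 fell, where 15.6% of all genes did. The brightest Nr3c1 probe set passed in neither. PPAR targets were mixed, with 2 of 7 higher and 3 lower at day 5 (median -0.36), among them Cpt1a (-3.69), Angptl4 (-1.45), Acadm (-0.76) and Acadl (0.88). Of 10 LXR and sterol targets 1 rose, Mylip (2.07), and 3 fell, Abcg1 (-1.15), Apoe (-0.78) and Lpl (-1.17), with a median of -0.02.

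Markers of other cell types moved with the same arms. At day 5 the 14 fibroblast markers summed to 3556 to 3941 signal units, against 1157 to 1350 in controls, with 6 of the 8 tested higher and 0 lower. Cald1 (1079, 1043 and 1144, against 177, 75.1 and 166 in controls) and Tagln (781, 731 and 585, against 33.0, 60.4 and 40.1) rose most in signal. Vim was at 16.8, 26.1 and 18.7, against 23.4, 26.3 and 19.4. Thy1 was at 19.3, 27.9 and 11.6, against 41.2, 61.0 and 55.9. Endoderm markers summed to 2019 to 2509 at day 5, against 996 to 1059 in controls (7 of 12 tested higher, 0 lower), and primitive streak markers to 1645 to 2217, against 196 to 261 (6 of 6 tested higher). In the endoderm list Col4a1 had 380, 404 and 546 at day 5, against 73.1, 66.5 and 97.5 in controls. Gata4 (86.8, 107 and 126 at day 5) and Afp (16.8, 36.3 and 31.3) overlapped their control values. Neural markers summed to 1514 to 1887 at day 1 with RA, against 373 to 777 in controls (5 of 6 higher, 0 lower), and fibroblast markers to 1824 to 2171 there (2 of 8 higher, 1 lower). Sox11 alone had 1177, 1316 and 997 of those neural sums. Without RA, neural markers summed to 1073 to 1135 at day 3 (4 of 6 higher, 0 lower). At day 5 without LIF they summed to 1363 to 1533 (3 of 6 higher, 1 lower). Sox11 (813, 676 and 898) and Cdh2 (209, 290 and 336) made up most of those sums. Sox1 (9.14, 19.8 and 25.6, against 30.7, 44.8 and 39.3 in controls) and Pax6 lay below their controls. Of all genes, 17% were higher and 15.2% lower at day 5. At day 3 these shares were 6.88% and 5.68%, and at day 1 with RA 11.1% and 9.86%. At day 2 with RA neural markers summed to 1799 to 1913, fibroblast markers to 2834 to 4036 and endoderm markers to 1988 to 3462. Markers of undifferentiated cells summed to 3677 to 3947 at day 5, against 18558 to 22223 in controls (0 higher, 9 of 10 lower). None of the 54 markers had a signal of 0 in any library.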

How the data were processed

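Total RNA was amplified in 2 rounds and hybridised to Affymetrix MG-U74Av2 (chip A) and MG-U74Bv2 (chip B) arrays, per the labels' protocols. The deposited intensities are MAS5 signals, per the submitters' processing notes; the files hold 12422 and 12411 probe sets, and a mean trimmed by 2% at each end came to about 150 on every array. Nothing further was done to their scale. Signals were taken as log2(signal + 4) on chip A and log2(signal + 7) on chip B, and the 60% brightest probe sets of each chip (7453 and 7447) were tested. Fold changes are on that scale, which understates those of dim genes. The additive model of arm and Oct4 gate was fitted over all 18 libraries with lmFit and eBayes of limma 3.58.1 (R 4.3.3, statmod 1.5.0 for random blocks), with Benjamini-Hochberg adjustment over all probe sets of a chip and a threshold of 0.05. Within-scan comparisons used only libraries of 1 scan day. A gene was read through its brightest probe set. Values in every library were given for members that passed with a log2 change of at least 1, together with a few others chosen after their values were seen, and listed genes were named by smallest p, up to 4 a list. The script was tested on simulated data. Members, lists and tests were chosen with earlier results of these data known. Replicate numbers were shared by the 2 high gate controls and the 2 high gate day 1 libraries, whose deviations correlated at 0.173 (chip A) and 0.115 (chip B). Alternatives were other pseudocounts, filters, normalizations, probe sets, scan day blocks and left-out libraries. 1 gene that the symbol rule would cover is not reported here.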

Additional observations from a re-analysis of the deposited data

Results flagged for a closer look

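In 30 groups of 4 libraries examined, 2 members had a library far from the other 3 of day 1 without LIF, by a test in which chance singles out about 1 in 20 groups (Dixon's ratio of gap to range, taken on the log2(signal + pseudocount) scale). Nr1d1 was at 48.0 in the low gate library, against 66.5 to 67.6 in the other 3, a gap of 0.955 of the log2 range. Nr6a1 was at 859 in the second high gate library, against 377 to 400 in the other 3, a gap of 0.928 of the log2 range. That library is the one doubted above, and its Nr6a1 signal was just above the 748 to 857 of the day 1 RA libraries. The cause of either gap was not tested.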

How the results depend on the processing

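Over 28 pairs of a called member and a comparison, 381 alternative values were computed. Of these, 257 kept their direction and their side of the threshold, 124 kept the direction only and 0 reversed. Other probe sets of a gene entered only where bright enough to be tested. The second Ncoa2 probe set, which did not show the rise, was therefore not counted. The day 5 count of 7 was 5 to 7 in every alternative run. At day 3 the count of 4 was 2 with no brightness filter, 0 with scan day as a random block, 0 in a fit of the 2 arms alone, and 0 to 4 with 1 library left out. At day 1 without LIF the count of 1 was 0 with no filter, 2 with scan day as a fixed block, 0 as a random block, 0 in the fit of 2 arms and 0 to 1 with 1 library left out (0 without control high replicate 1, control medium or the day 1 medium library). At day 1 with RA the count of 4 was 2 with the random block, 0 in the fit of 2 arms and 2 to 5 with 1 left out. At day 2 with RA the count of 5 was 3 with no filter, 8 with the fixed block, 0 in the fit of 2 arms and 0 to 7 with 1 left out. With the fixed block 19.8% of all genes were called at day 2 with RA and 4.02% at day 1 without LIF. With the random block it was 3.07% at day 3, 6.82% at day 1 with RA and 0.52% at day 1 without LIF. Shares of all genes were not counted with no filter or in the fit of 2 arms. Between day 1 with RA and day 1 without LIF the count was 0 to 2, with 2 only without the doubted library. Within a scan day, day 5 against day 1 gave 3 to 6 with 1 left out, and day 1 with RA against day 3 gave 0 to 1. Day 2 with RA against day 1 gave 1, but 3 with the larger pseudocount, 0 with no filter, 2 with quantile normalization, 4 without the gate term and 0 to 0 with 1 left out. The fit of 2 arms has fewer libraries; otherwise the cause was not tested. Analyses without the doubted library were chosen after seeing the data where it lies outside the arms compared. The replicate number as a replicate block in the high gate comparison left 0 members called, as without it, from 2 pairs. The fixed scan day block could not be estimated for day 3, or for day 1 with RA. Signal near background limits the 9 untested receptors.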
